A study of Homo sapiens with 2 samples.

Results

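Transcripts of 9 genes of the TGF-beta and BMP pathways were compared between a CREB1 knockout clone and CREB1 wild-type cells of the human colorectal carcinoma line HCT116. The genes are the ligands TGFB1, TGFB2 and BMP4, the receptors TGFBR1 and TGFBR2, the signal carriers and inhibitors SMAD3 and SMAD7, and the target genes ID1 and ID3. They were taken by symbol from a table of 57820 genes, and all 9 symbols matched 1 Ensembl identifier each. The rule that took their rows used no measured value, but the genes were chosen with earlier results of these data known. There was 1 library of each genotype and thus no replicate. The knockout library came from HCT116 cells edited at CREB1 with a plasmid that carried nickase Cas9 and targeting guides, and it represents 1 selected clone in which CREB1 was reported absent. The wild-type library came from HCT116 cells with intact CREB1, for which no cloning step is described. Both cultures were kept in DMEM with fetal bovine serum, and total RNA depleted of ribosomal RNA was sequenced in strand-specific, paired-end libraries. A difference between the libraries therefore cannot be told apart from a difference between a clone and its parent line.

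TGF-beta ligands bind TGFBR2, a type II serine/threonine kinase receptor, which recruits and phosphorylates the type I receptor TGFBR1. TGFBR1 in turn phosphorylates SMAD2 and SMAD3, which enter the nucleus with SMAD4 and change transcription, while BMP ligands act through other receptors and through SMAD1, SMAD5 and SMAD9. In the colonic epithelium TGF-beta restrains proliferation, and this arm is often lost in colorectal cancers that lack DNA mismatch repair. HCT116 is such a line, and it is known for frameshift mutations in a run of adenines in the coding sequence of TGFBR2 that leave it without a working type II receptor.

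The targeted gene and the cell markers set the frame for the comparison. Expected counts, which are estimated reads per gene, summed to 31178312 in the knockout and 34511071 in the wild-type library. CREB1 itself had 499 counts in the knockout and 614 in the wild-type library, a log2 ratio of -0.23 with a 95% counting interval of -0.40 to -0.05, and a count per gene does not check a small insertion or deletion. Of 10 epithelial and colorectal markers, 6 passed a mean of 1 CPM (counts scaled to library size with the TMM method), and their list summed to 3521 CPM in the knockout and 4019 CPM in the wild-type library. The colonic marker CEACAM5 had 0 counts in both libraries, and KRT20, VIL1 and LGALS4 lay under 1 CPM on average. A count of 0 allows up to 0.0938 CPM in the knockout and 0.0892 CPM in the wild-type library, at 3 counts per library. Fibroblast markers summed to 2.88 CPM in the knockout and 2.67 CPM in the wild-type library, nearly all of it COL1A1. Endothelial and blood cell markers summed to 0.625 and 0.505 CPM, in the same order of libraries, nearly all of it VWF with 17 counts in each. PTPRC, CDH5, CD3E and HBB were at 0 in both, and PECAM1, also among the 8 listed, matched no identifier.

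None of the 9 genes differed by as much as 2-fold between the libraries. A gene was called when it had a mean of at least 1 CPM, a log2 ratio, taken with a prior count of 0.5, of at least 2-fold and a counting interval that left out no difference. By that rule 2.92% of 12886 expressed genes were called, 1.28% as higher and 1.64% as lower in the knockout library. Scaling by total counts gave 201 higher and 167 lower genes, and 54.6% of the calls were then higher, against 43.9% with TMM. Of the 9 genes, 8 passed the filter on low values and 0 were called in either direction, which at a background of 2.92% is no result about these genes. The 8 genes also stayed within 1.5-fold, a limit that 10.8% of expressed genes passed with an interval leaving out no difference. All intervals are exact Clopper-Pearson intervals that cover counting error only and treat read pairs as independent molecules. In bulk RNA, fewer cells with a transcript and fewer transcripts per cell cannot be told apart.

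**Figure D1:**
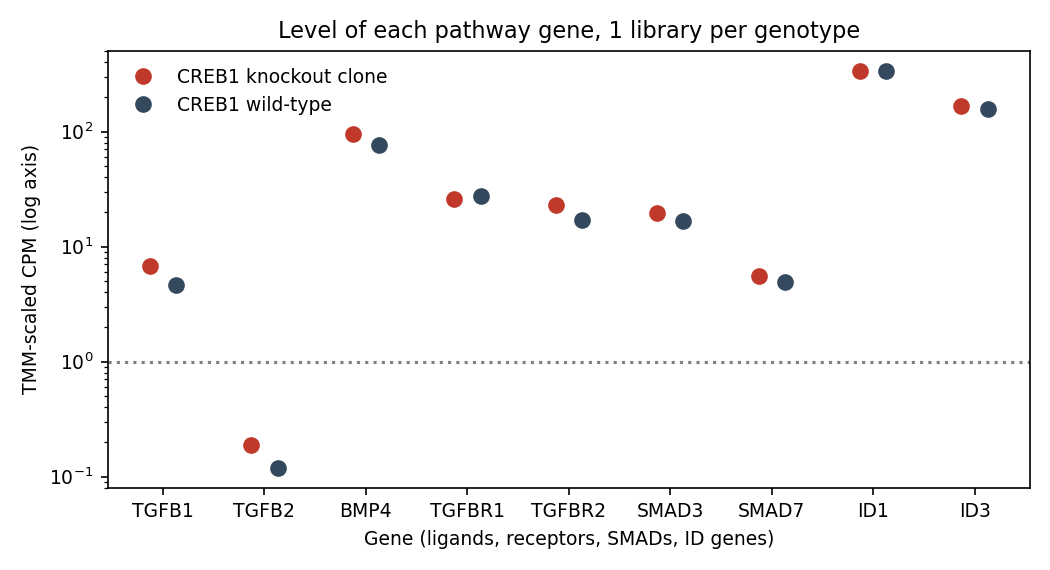
TMM-scaled CPM of each of the 9 genes (log axis) in the CREB1 knockout clone (red, left of each pair) and in CREB1 wild-type cells (dark, right of each pair), 1 library each, with a dotted line at 1 CPM. The levels spread over more than 3 orders of magnitude between TGFB2, at 0.188 CPM in the knockout and 0.119 CPM in the wild-type library, and ID1, at 338.9 and 338.6 CPM in the same order, while the points of each pair lie close together.

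Among the ligands, TGFB1, the most widely expressed TGF-beta ligand, which is secreted in latent form, had 218 counts in the knockout and 155 in the wild-type library, or 6.82 and 4.61 CPM. Its ratio of 1.48-fold (log2 ratio 0.56, interval 0.26 to 0.87) was the largest of the 8 genes that passed the filter. The interval lay above 0, as it did for 26.4% of all expressed genes, and 5.80% of expressed genes had a ratio at least as high. In the GRCh38 annotation TGFB1 is overlapped on the other strand by HNRNPUL1, CCDC97 and TMEM91. HNRNPUL1, a nuclear RNA-binding protein gene, had 2513 counts in the knockout and 2174 in the wild-type library. CCDC97 had 325 counts in the knockout and 260 in the wild-type library, and TMEM91 had 66.3 expected counts in the knockout and 37 in the wild-type library. The overlap was taken over whole gene spans, introns included, and shared exon bases were not read. Counts of TGFB1, HNRNPUL1 and CCDC97 were whole numbers in both libraries, while that of TMEM91 was fractional in the knockout library. No source used here states the strand setting of the counting, and whether TGFB1 and these genes shared reads was not tested.

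TGFB2, which binds TGFBR2 well only with the coreceptor TGFBR3, was close to undetected, with 6 counts in the knockout and 4 in the wild-type library. Its log2 ratio of 0.60 had an interval from -1.42 to 2.93, so neither a rise nor a fall of 2-fold was detectable at this depth. BMP4, a BMP ligand with roles in gut development, was the most abundant of the 3 ligands. It had 3064 counts in the knockout and 2574 in the wild-type library, or 95.8 and 76.5 CPM. The ratio was 1.25-fold (log2 ratio 0.32, interval 0.25 to 0.40), and 16.0% of expressed genes had a ratio at least as high.

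The receptors carry the sequence for which this line is known. The stretch below is the reference coding sequence of TGFBR2 around its longest adenine run, read from the GENCODE 29 transcript TGFBR2-201, with the run in capitals. It spans 10 adenines that begin at base 374 of 1701 coding bases, in codon 125, and the next longest adenine run of this coding sequence has 4 bases. The deposited table holds counts per gene and no sequence, so the length of the run in these cells was not read.
TGFBR2 coding sequence: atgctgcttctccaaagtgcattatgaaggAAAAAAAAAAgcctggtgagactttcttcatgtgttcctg

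TGFBR2 transcripts were present in both libraries, with 739 counts in the knockout and 571 in the wild-type library, or 23.1 and 17.0 CPM. The ratio was 1.36-fold (log2 ratio 0.45, interval 0.29 to 0.61), and 9.65% of expressed genes had a ratio at least as high. TGFBR1, the type I partner, had 822 counts in the knockout and 925 in the wild-type library, or 25.7 and 27.5 CPM. Its log2 ratio of -0.10 was the only one below 0 among the 9 genes, and its interval of -0.23 to 0.04 included no difference. The ratio of the 2 receptor transcripts within a library does not depend on the scaling between libraries. There were 0.899 TGFBR2 reads per TGFBR1 read in the knockout and 0.617 in the wild-type library, a ratio of 1.46 with a counting interval of 1.26 to 1.69.

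SMAD3, which carries the TGF-beta signal from TGFBR1 to DNA, had 628 counts in the knockout and 564 in the wild-type library, or 19.6 and 16.8 CPM. Its ratio was 1.17-fold (log2 ratio 0.23), with an interval of 0.06 to 0.40. SMAD7, an inhibitory SMAD that is induced by the pathway and blocks the activated receptor, had 177 counts in the knockout and 167 in the wild-type library, or 5.54 and 4.96 CPM. The log2 ratio of SMAD7 was 0.16, and its interval of -0.16 to 0.47 included no difference. Reads of SMAD7 per read of SMAD3 numbered 0.282 in the knockout and 0.296 in the wild-type library, a ratio of 0.952 with a counting interval of 0.743 to 1.22.

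ID1 and ID3 encode helix-loop-helix proteins without a DNA-binding region that hold E-box factors away from DNA, and both are classical direct targets of BMP signalling through SMAD1 and SMAD5. They were the most abundant of the 9 genes and among the least different. ID1 had 10838 counts in the knockout and 11392 in the wild-type library, or 338.9 and 338.6 CPM. Its log2 ratio was 0.00 (interval -0.04 to 0.04), and over the 5 scalings and the larger prior count it ran from -0.02 to 0.07, so that its sign depended on the scaling. ID3 had 5312 counts in the knockout and 5243 in the wild-type library, or 166.1 and 155.8 CPM, with a log2 ratio of 0.09 (interval 0.04 to 0.15). Per ID3 read there were 2.04 ID1 reads in the knockout and 2.17 in the wild-type library, a ratio of 0.939 with a counting interval of 0.896 to 0.984. At the depth of these 2 genes a difference of a few percent exceeds counting error, and spread between cultures was not measured.

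**Figure D2:**
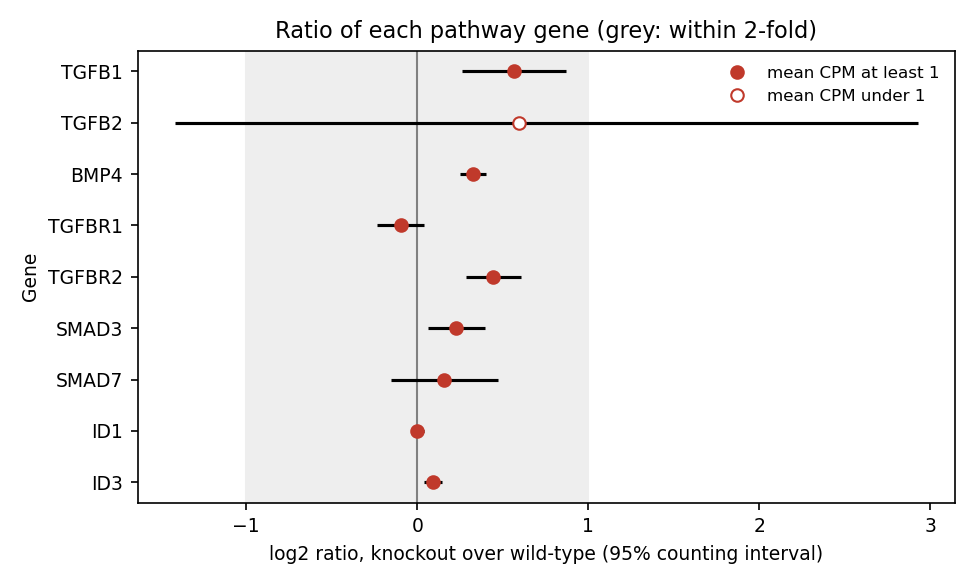
log2 ratio of each of the 9 genes, knockout over wild-type, with horizontal bars for the 95% counting interval, and a grey band marking differences of less than 2-fold. All 9 points lie inside the band, TGFBR1 is the only point below 0 and the interval of TGFB2 (open point, under 1 CPM) runs from -1.42 to 2.93.

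Across the 9 genes the intervals of 5 (TGFB1, TGFBR2, SMAD3, BMP4 and ID3) lay above 0 and of none below 0. Over all expressed genes the shares were 26.4% above 0 and 25.5% below 0, together 51.9%. Those 5 intervals lay above 0 under each of the 5 scalings, and that of ID1 did so under 2 of them. The median log2 ratio of the 8 genes that passed the filter was 0.19, against 0.01 over all expressed genes. An interval is narrow where a gene is abundant, so the count depends on level, and the 8 genes were not drawn at random.

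The order of abundance was nearly alike in the 2 libraries once levels were set per kilobase of exon, with exon lengths from GENCODE 29. ID1 came first, with 274.9 CPM per kilobase in the knockout and 274.6 in the wild-type library, and ID3 second, with 92.4 and 86.7 in the same order. BMP4 followed at 31.1 CPM per kilobase in the knockout and 24.8 in the wild-type library. Below these stood the receptors, and here the order changed. TGFBR2 had 4.91 CPM per kilobase in the knockout and 3.61 in the wild-type library, while TGFBR1 had 3.76 in the knockout and 4.02 in the wild-type library. Their counting intervals did not overlap in the knockout library (4.56 to 5.28 for TGFBR2, 3.50 to 4.02 for TGFBR1) and overlapped in the wild-type library (3.32 to 3.92 and 3.76 to 4.28).

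SMAD3 came next at 2.16 CPM per kilobase in the knockout and 1.84 in the wild-type library. TGFB1 stood at 2.11 in the knockout and 1.42 in the wild-type library. The intervals of these 2 genes overlapped in the knockout library and were apart in the wild-type library, where that of TGFB1 ended at 1.67 and that of SMAD3 began at 1.69. SMAD7 followed at 1.10 CPM per kilobase in the knockout and 0.986 in the wild-type library, and TGFB2 was last at 0.0364 and 0.0231. The places of the 5 genes between BMP4 and TGFB2 depend on the length chosen. With the median length of a gene's annotated transcripts, many of which are fragments, TGFBR2 fell in eighth place in both libraries and SMAD3 in the fourth.

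The genes lie on 8 chromosomes, with TGFB2 and ID3 sharing chromosome 1. The ratios of the nearest 10 expressed protein-coding genes on each side were set beside each gene. Around TGFB1 (chromosome 19) the median log2 ratio of the 20 neighbours was -0.01 (range -0.48 to 1.71), around TGFBR2 (chromosome 3) it was -0.07 (range -2.50 to 0.46), and around BMP4 (chromosome 14) it was 0.00 (range -0.31 to 0.56). These 3 genes are those with the highest ratios among the genes that passed the filter. Each of the 9 genes except TGFBR1 lay above its neighbours' median, and all 9 lay below their highest neighbour. Over all 9 genes the neighbours' medians ran from -0.14, around SMAD7, to 0.08, around ID3.

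**Figure D3:**
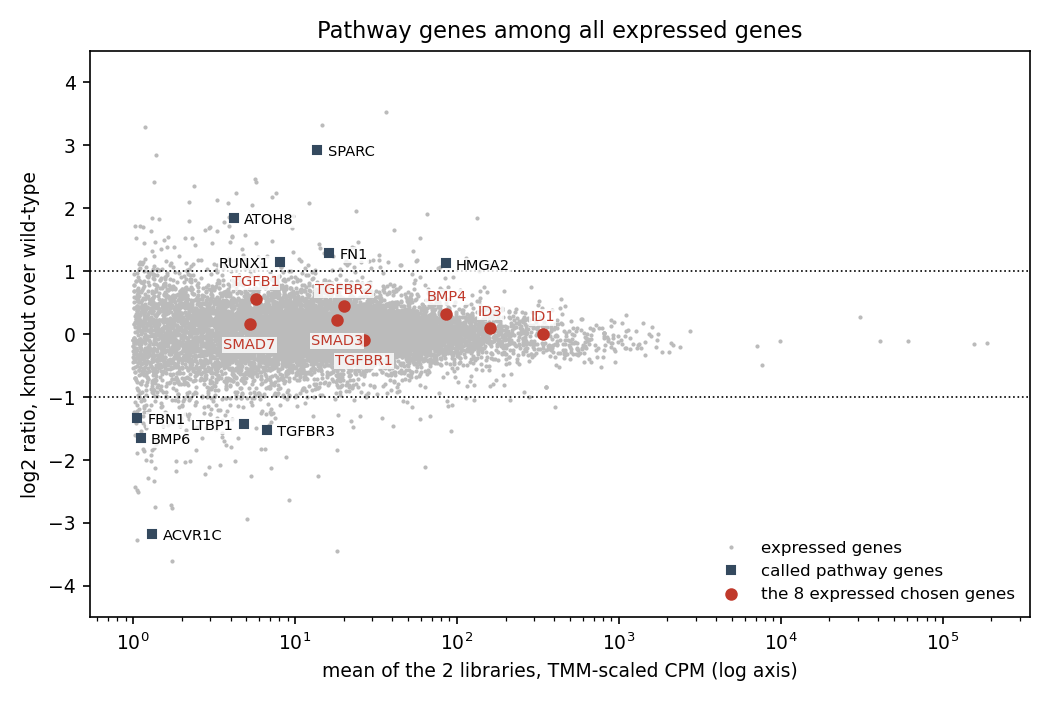
log2 ratio, knockout over wild-type, against the mean TMM-scaled CPM of the 2 libraries (log axis) for 12886 expressed genes (grey), the 8 chosen genes that passed the filter (red) and the 10 called genes of the other pathway lists (dark squares). Dotted lines mark 2-fold, and 10 genes beyond 4.5 on the log2 axis are not drawn. The red points lie inside the grey mass, while ACVR1C and SPARC lie outside it.

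The rest of the pathway was read from 10 lists with 157 distinct symbols, of which 155 matched an identifier and 91 passed the filter. Outside the target genes, the called genes were ACVR1C, TGFBR3, LTBP1, FBN1 and BMP6, each lower in the knockout library. Of 60 expressed ligands, receptors, storage proteins, SMADs, regulators and antagonists, 0 were called higher and 5 lower. Among the target genes, 5 of 31 were called higher and 0 lower. Of all expressed genes, 1.28% were called higher and 1.64% lower. By the counting interval alone, 15 of the 60 lay above 0 and 14 below. For the 31 target genes, the intervals of 16 lay above 0 and of 6 below. At a mean of at least 5 CPM the calls in the lists numbered 4 higher and 1 lower, so most of the lower calls were of rare transcripts. The lists together had 10 called genes of 91, beside 2.92% of all expressed genes. The lists were drawn up with earlier results of these data known, SPARC, FN1 and HMGA2 among them. Counts were planned for each list alone, so the split between target genes and the rest only describes these lists and was not tested.

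ACVR1C, the type I receptor ALK7 that binds nodal and some activins, was 9.50-fold lower, with 8 counts in the knockout and 80 in the wild-type library (log2 ratio -3.17, counting interval -4.51 to -2.20). TGFBR3, the coreceptor betaglycan that presents TGF-beta to TGFBR2, was 2.88-fold lower, with 111 and 336 counts in the same order (log2 ratio -1.52, interval -1.85 to -1.21). The other 4 expressed genes of that list, among them ACVR1B (577 and 571 counts), ACVR2B (665 and 746 counts) and TGFBRAP1 (769 and 783 counts), were not called, and the list had a median log2 ratio of -0.08. ACVR1C was rare, at 0.250 CPM in the knockout and 2.38 CPM in the wild-type library, and TGFBR3 stood at 3.47 and 9.99 CPM.

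Storage of latent TGF-beta was represented by 10 expressed genes, of which 2 were called lower and 0 higher. Of all expressed genes, 1.64% were called lower and 1.28% higher. LTBP1, which binds latent TGF-beta to the matrix, was 2.70-fold lower, with 84 counts in the knockout and 239 in the wild-type library (counting interval 2.10-fold to 3.51-fold). FBN1, the fibrillin on which LTBP1 is anchored, was 2.55-fold lower with 19 and 51 counts (counting interval 1.48-fold to 4.58-fold). It was rare, at 0.594 CPM in the knockout and 1.52 CPM in the wild-type library. The integrin genes ITGAV (log2 ratio 0.42, interval 0.32 to 0.52) and ITGB5 (0.33, interval 0.24 to 0.43), whose products bind the latent complex, and LTBP3 (-0.12, interval -0.23 to -0.01) were not called. The list had a median of -0.07.

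Of 15 further TGF-beta and activin family ligands, 2 passed the filter and 0 were called. GDF15, a stress-induced member of the family, had 5387 counts in the knockout and 5183 in the wild-type library (log2 ratio 0.13), and GDF11 had 95 and 117 counts (-0.23). Among BMP ligands, 5 passed the filter and 1 was called, beside 2.92% called of all expressed genes. BMP6 was 3.19-fold lower, with 17 counts in the knockout and 57 in the wild-type library (counting interval 1.83-fold to 5.84-fold). It was rare, at 0.532 CPM in the knockout and 1.69 CPM in the wild-type library. BMP8A had 33.8 and 72.0 expected counts and a log2 ratio of -0.999 that fell just short of the call, which uses the log2 ratio with its prior count, although the plain ratio of CPM was 2.01-fold lower, and BMP8B had 338.2 and 399.1 expected counts (-0.17). These 2 genes are close copies with fractional counts, and how RSEM split shared reads between them is uncertain. BMP7 had a log2 ratio of 0.11 and AMH, the anti-Müllerian hormone, of 0.57.

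The remaining 6 SMADs had log2 ratios from -0.23 to 0.10 and a median of -0.04. Of these 0 were called, which at 2.92% called of all expressed genes is no result about them. SMAD2, the partner of SMAD3, had 1889 counts in the knockout and 1996 in the wild-type library (log2 ratio -0.01). SMAD4, the common partner of both arms, had 1309 and 1285 expected counts (0.10), and SMAD5 had 1126 and 1229 counts (-0.05). SMAD1 (-0.23, interval -0.44 to -0.02) and the inhibitory SMAD6 (-0.18, interval -0.48 to 0.11) were farthest from 0. Of 18 expressed corepressors, ubiquitin ligases and anchors, 0 were called, which at the same share is no result either, and the median was 0.12. TGIF1, a corepressor of SMAD2 and SMAD3, had 4235 counts in the knockout and 3251 in the wild-type library (0.45, interval 0.39 to 0.52). The ubiquitin ligases SMURF2 (0.27) and NEDD4L (0.34) and the deubiquitinase USP9X (0.13) had smaller ratios. SKIL and BAMBI, feedback inhibitors chosen after their values were seen, had log2 ratios of 0.23 and -0.03.

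BMP receptors and coreceptors had 0 called genes of 7, no result beside 2.92% called of all expressed genes, and a median of 0.24. BMPR2, the type II BMP receptor, had 299 counts in the knockout and 195 in the wild-type library (log2 ratio 0.69, interval 0.43 to 0.96). NEO1, which binds coreceptors of the RGM family, had 843 and 643 counts (0.46), and BMPR1A had 928 and 1022 expected counts (-0.07). Of 19 listed extracellular antagonists, 6 passed the filter and 0 were called, again no result at that share. Their median of -0.43 was the lowest of the 10 lists, with the intervals of 4 below 0 and of 1 above 0. CHRD, which sequesters BMPs, had 115 counts in the knockout and 233 in the wild-type library (-0.94, interval -1.28 to -0.62). NBL1, an antagonist of the DAN family, had 1240 and 2041 expected counts (-0.65), CRIM1 had 666 and 819 counts (-0.22), and TWSG1 had 883 and 888 counts (0.07).

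**Figure D4:**
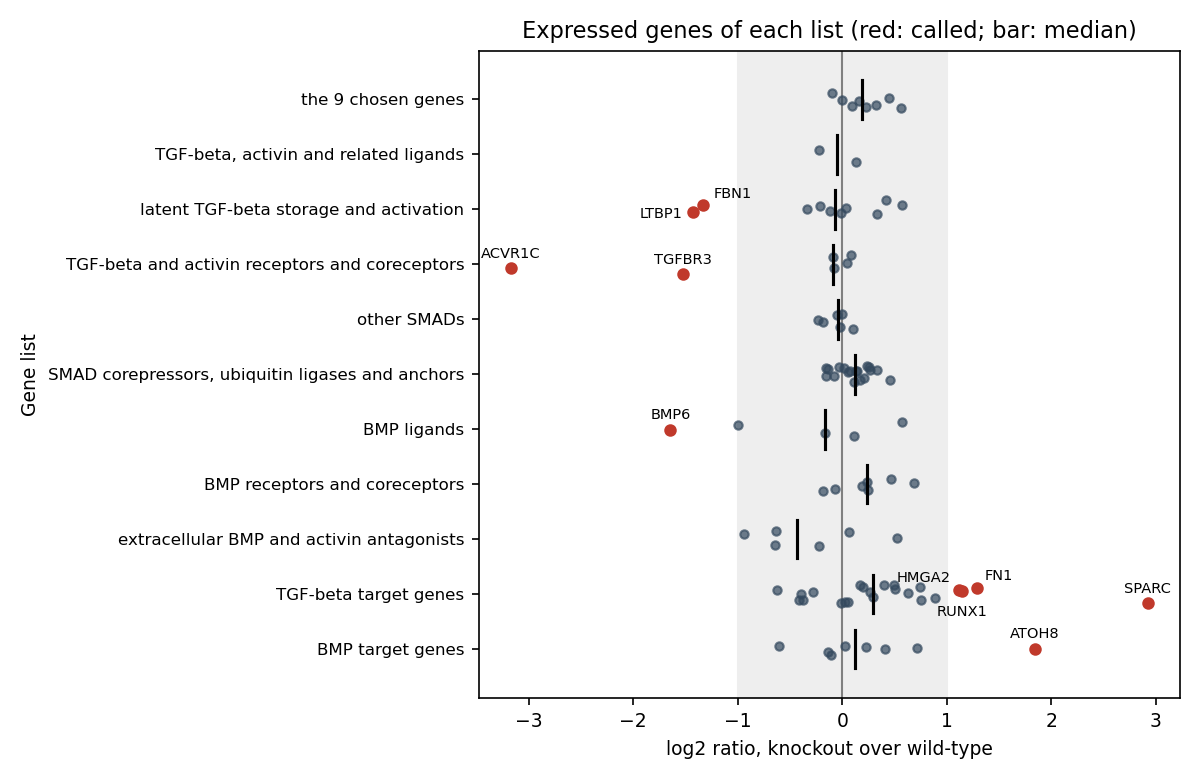
log2 ratio, knockout over wild-type, of each expressed gene in the 9 chosen genes (top row) and in the 10 other pathway lists (rows below), with called genes in red and named, a black bar at each list's median and a grey band marking differences of less than 2-fold. The 5 called genes outside the target lists (ACVR1C, BMP6, TGFBR3, LTBP1 and FBN1) lie to the left and the 5 called target genes (SPARC, ATOH8, FN1, RUNX1 and HMGA2) to the right. The lists were drawn up with earlier results of these data known, SPARC, FN1 and HMGA2 among them.

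Of 23 expressed TGF-beta target genes, 4 were called higher and 0 lower, beside 1.28% higher and 1.64% lower of all expressed genes. In this list 17 genes had a ratio above 0, as had 6600 of 12886 expressed genes. The intervals of 12 of the 23 lay above 0 and of 4 below 0. The matrix genes SPARC (7.63-fold) and FN1 (2.44-fold), the chromatin protein gene HMGA2 (2.18-fold) and RUNX1 (2.22-fold), a transcription factor that works with SMADs, were the called genes. RUNX1 had 357 counts in the knockout and 169 in the wild-type library (counting interval 1.85-fold to 2.69-fold). SPARC, FN1 and HMGA2 respond to many pathways, their ratios were known when the list was drawn up, and the median of the list was 0.30. CDKN1A, the cell cycle inhibitor p21 through which TGF-beta slows epithelial growth, had 3896 counts in the knockout and 4974 in the wild-type library (log2 ratio -0.28, interval -0.34 to -0.22). TSC22D1 had a log2 ratio of 0.40.

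Besides ID1 and ID3, 8 BMP target genes passed the filter, and 1 was called, beside 2.92% called of all expressed genes. ATOH8, a helix-loop-helix factor induced by BMP signalling in several tissues, was 3.61-fold higher, with 209 counts in the knockout and 61 in the wild-type library (counting interval 2.70-fold to 4.88-fold). ID2, the relative of ID1 and ID3, had 1311 and 1518 counts (log2 ratio -0.14, interval -0.25 to -0.03). MSX1 (2855 and 2957 counts, 0.02), UNC5B (665 and 756 counts, -0.11) and GATA2 (621 and 398 counts, 0.71) were not called. ID1, ID3 and ID2 each differed by less than 1.5-fold.

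Promoters were read because CREB1 binds the cAMP response element (CRE), written TGACGTCA, and its short form TGACG or CGTCA. The windows are the 250 bases before a RefSeq start site in GRCh38.p14, and each gene is represented by the window nearest to the start of the longest principal GENCODE 29 transcript. That start lies 899 bases from the start site of the window for TGFB2, 1087 for SMAD7 and 1761 for BMP4, and at most 293 for the other 6 genes. Those of TGFB1 and ID1 are shown as the genes with the highest and the least changed ratio among those that passed the filter, and those of TGFB2 and ID3 as the windows that hold the short CRE. Capitals mark the short CRE and the SMAD box, CAGAC or GTCTG on the other strand.
TGFB1 promoter, chr19:41353923-41354172, minus strand: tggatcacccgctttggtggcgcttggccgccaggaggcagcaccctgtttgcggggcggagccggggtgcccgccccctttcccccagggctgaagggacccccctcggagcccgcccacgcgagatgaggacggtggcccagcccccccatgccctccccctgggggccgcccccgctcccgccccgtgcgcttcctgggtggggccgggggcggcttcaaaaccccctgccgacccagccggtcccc
ID1 promoter, chr20:31605039-31605288, plus strand: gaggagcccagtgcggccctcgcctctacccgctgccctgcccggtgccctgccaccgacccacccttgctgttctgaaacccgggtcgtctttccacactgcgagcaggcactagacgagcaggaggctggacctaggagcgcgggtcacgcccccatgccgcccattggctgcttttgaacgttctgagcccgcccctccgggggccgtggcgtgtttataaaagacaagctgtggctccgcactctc
TGFB2 promoter, chr1:218345086-218345335, plus strand: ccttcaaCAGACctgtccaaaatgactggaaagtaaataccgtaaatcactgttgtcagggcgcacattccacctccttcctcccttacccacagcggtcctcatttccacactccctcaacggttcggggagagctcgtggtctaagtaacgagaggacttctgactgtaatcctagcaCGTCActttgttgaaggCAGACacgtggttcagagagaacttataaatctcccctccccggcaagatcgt
ID3 promoter, chr1:23559502-23559751, minus strand: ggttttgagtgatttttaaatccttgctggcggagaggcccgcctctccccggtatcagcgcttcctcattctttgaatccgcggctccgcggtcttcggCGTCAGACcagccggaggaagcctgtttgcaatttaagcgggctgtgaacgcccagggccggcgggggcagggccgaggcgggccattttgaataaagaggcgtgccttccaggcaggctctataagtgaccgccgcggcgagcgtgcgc

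The full CRE was found in 0 of the 9 windows, and in 1.65% of all 35116 windows of this length. The short CRE was found in the windows of TGFB2, where it begins 70 bases before the start site, and of ID3, where it begins 150 bases before it and shares 2 bases with a SMAD box. Over all windows its share was 21.2%. Among the other windows of the same genes, 1 of 8 listed for TGFBR1 and 1 of 5 for SMAD3 held it as well, and 2 of 5 for SMAD3 held a SMAD box. The SMAD box was found in the windows of TGFB2, TGFBR1, SMAD7, BMP4 and ID3, and in 38% of all windows. GGCGCC, a GC-rich element bound by SMAD1 and SMAD5, was found in the windows of SMAD3 and BMP4, and in 16.4% of all windows. Counting every listed window, 1 of 5 for SMAD3, 1 of 3 for BMP4 and 1 of 8 for TGFBR1 held GGCGCC. The windows of TGFB1, TGFBR2 and ID1 held none of the 4 motifs. A match describes these letters and is no evidence of binding, and no match says only that the letters are not in this window.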

How the data were processed

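The authors deposited expected counts per gene for 2 libraries, 1 from the knockout clone and 1 from wild-type cells, as estimated reads that had not been scaled between libraries. The submitters' processing notes name build hg19, RSEM 1.2.26, STAR 2.4.2a and cutadapt 2.0. The annotation release, strand setting and filters are not stated there or in the labels. The counts of all 9 genes were whole numbers in both libraries. Names, gene order and exon lengths came from GENCODE 29 (GRCh38) by identifiers without version, and 52338 of 57820 (90.5%) matched. Unmatched identifiers remained in the totals and held 35.2% of counts in the knockout and 37.0% in the wild-type library. The 5 highest genes held 47.1% and 48.4% of counts, in the same order.

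Counts were rounded, scaled with TMM (edgeR 4.0.16, R 4.3.3), and log2 ratios, knockout over wild-type, were taken with a prior count of 0.5. Folds are ratios of scaled CPM. With 1 library per group no p-value was computed, and intervals are Clopper-Pearson at 95%. Ratios between 2 genes have exact conditional intervals (scipy 1.17.1). The procedure was run on simulated counts that held counting error alone. That run had no spread between cultures, so it cannot speak to differences between a clone and its parent line. Alternatives were total counts with and without the 5 highest genes, DESeq2 1.42.0 size factors, upper-quartile scaling, a prior count of 2, other filters and a fold of 1.5.

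The genes and lists were chosen with earlier results of these data known. In each list the text names the called genes, the 3 most abundant and the 2 farthest from 0. Any other name is marked. The receptor, SMAD, ID and ligand pairs and the neighbour medians were also added after the ratios were known. The values of 1 listed target gene are not reported here.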

Additional observations from a re-analysis of the deposited data

How the results depend on the processing

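No alternative called any of the 9 genes. Their log2 ratios kept their sign under the 4 other scalings and the larger prior count, except that of ID1, which ran from -0.02 to 0.07. Total counts moved all log2 ratios up by 0.07 and put ID3 at 0.17 and TGFB1 at 1.55-fold. The counts of calls depended on the filter and the fold. Without a filter 1086 genes were called (451 higher, 635 lower), at a mean of at least 5 CPM 137 (75 higher, 62 lower), and at 1.5-fold 1386 (677 higher, 709 lower). In the other pathway lists 19 genes were called without a filter (10 higher, 9 lower), 5 at 5 CPM (1 lower, TGFBR3), and 22 at 1.5-fold (11 higher, 11 lower). The lower calls in those lists thus rest mostly on genes under 5 CPM, where counts limit precision. DESeq2 and upper-quartile scaling gave 11 calls there, against 10. No paired analysis was possible because each group has 1 library, and no library could be left out.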

Other observations

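Among 64 matched pathway genes under a mean of 1 CPM, 9 had a ratio of at least 2-fold and an interval leaving out no difference. Of these, 5 were higher and 4 lower in the knockout library. Over all 57820 genes, 1086 were called without a filter and 376 with it. The 9 pathway genes were chosen after their values were seen, and each rests on few counts. ID4, the rarest relative of ID1 and ID3, had 35 counts in the knockout and 5 in the wild-type library, 7.37-fold higher (counting interval 2.87-fold to 24.1-fold). TGFBI, a matrix protein named for its induction by TGF-beta, had 44 and 6 counts in the same order, 7.72-fold higher (3.28-fold to 22.2-fold). CTGF, a matricellular target gene, had 24 and 6 counts, 4.21-fold higher.

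INHBA, the gene of the activin A subunit, had 11 counts in the knockout and 0 in the wild-type library, at least 3.86-fold higher against a floor of 3 counts per library if the 11 counts are taken as measured, with a counting interval that begins at 2.64-fold. TNC, the matrix protein tenascin C, had 12 and 0 counts, at least 4.21-fold higher by the same floor, with a counting interval that begins at 2.92-fold. INHBB, the activin B subunit gene, was 3.56-fold lower with 8 and 30 counts. LDLRAD4, which restrains SMAD2 and SMAD3, had 6 and 24 counts, with a lower interval bound of 1.51-fold. NOG, the BMP antagonist noggin, was 2.53-fold lower with 9 and 24 counts. RUNX2 had 1 count in the knockout and 14 in the wild-type library, a ratio of 13.3-fold lower with a counting interval of 2.02-fold to 562.6-fold.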
